A study of Mus musculus with 6 samples.

Results

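The 10 genes described here, of leukocyte recruitment and cytokine reception, were followed in mouse retina, among 25124 gene models in the deposited table: the chemokine ligands Cxcl1, Ccl2, Ccl12, Cxcl12, Cxcl16 and Cx3cl1, the chemokine scavenging receptor Ackr3, the cytokine Il33 and the cytokine receptor chains Csf2rb and Csf2rb2. Each was found by its gene symbol, and all 10 were present once. Csf2rb2, Cxcl1 and Cxcl12 were chosen by their values in this genotype comparison. Their levels, fold changes, standard errors (SE) and ranges over other settings are therefore given only as a description, with no p-value. The other 7 were chosen by name, with earlier results of these data known. Retinas came from C57BL/6J mice aged 4 months, in 3 wild-type (WT) libraries and 3 libraries from mice carrying the Elovl2 C234W substitution, an amino acid change in an elongase of long-chain polyunsaturated fatty acids. No treatment is given for either group, and the labels state neither the zygosity nor how the allele was made. The table names the WT libraries WT1A, WT2A and WT2B and the others FS3A, FS3B and FS5A; FS is unexplained in the labels and was read as C234W because the header lists 3 directories of each genotype, which sets the direction of every difference below.

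Chemokines are small secreted or membrane-tethered proteins that steer leukocytes through G protein-coupled receptors. In the retina, Müller glia, endothelium, microglia and neurons are known sources, and Cxcl1 and Ccl2 are induced in stressed glia, where NF-κB and STAT3 are regulators of such genes. IL-33 is a nuclear cytokine of the IL-1 family that acts as an alarm signal on cells bearing the ST2 receptor. The common β chain, encoded by Csf2rb, pairs with ligand-specific α chains to form receptors for GM-CSF, IL-3 and IL-5, and mice carry a second, IL-3-restricted β chain encoded by Csf2rb2.

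The libraries held between 14184093 and 19298613 counts in genes. Values are CPM, read counts scaled to a common library size with the trimmed mean of M-values (TMM), and fold changes are log2 of C234W over WT. All 9 rod markers were present, with summed levels of 65084 to 86396 CPM in C234W and 96822 to 152278 CPM in WT, and all 8 Müller glia markers, which fits the retinal label. WT1A stood apart in pigment epithelium markers, which summed to 487.7 CPM there against 57.09 to 126 CPM in the other 5 libraries. The labels do not tie each library to an animal of its own, and the names WT2A and WT2B carry the same number, as do FS3A and FS3B. The p-values therefore describe the spread between these samples, which may be technical. In bulk tissue, fewer cells of a type and less RNA per cell cannot be told apart.

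The 250 bases upstream of 4 members are shown because these genes follow the 2 patterns described below, Cxcl1 and Il33 one and Csf2rb2 and Cxcl12 the other. They are RefSeq sequences of build GRCm38.p6, written 5′ to 3′ on the gene's strand, and each ends at the base before the start of the counted transcript. Capitals mark matches to 4 motifs searched on both strands: GGANTTTCC for NF-κB, TTCNNNGAA for STAT factors, TGANTCA for AP-1 and TATAAA for the TATA box. The motifs were set after these sequences and the levels had been seen, and the NF-κB motif was shortened by 1 G from the form searched first.

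Cxcl1, chr5:90890995-90891244, plus strand: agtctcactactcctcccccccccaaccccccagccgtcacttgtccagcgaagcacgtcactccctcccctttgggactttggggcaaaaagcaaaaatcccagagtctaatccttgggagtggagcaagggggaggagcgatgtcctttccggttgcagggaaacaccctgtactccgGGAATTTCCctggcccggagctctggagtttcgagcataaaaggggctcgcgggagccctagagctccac
Il33, chr19:29924863-29925112, plus strand: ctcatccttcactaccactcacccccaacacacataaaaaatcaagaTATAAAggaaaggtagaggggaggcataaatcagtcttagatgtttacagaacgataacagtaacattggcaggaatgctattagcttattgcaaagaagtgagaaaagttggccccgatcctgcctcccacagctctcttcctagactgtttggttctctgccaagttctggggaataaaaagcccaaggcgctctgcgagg
Csf2rb2, chr15:78305722-78305971, minus strand: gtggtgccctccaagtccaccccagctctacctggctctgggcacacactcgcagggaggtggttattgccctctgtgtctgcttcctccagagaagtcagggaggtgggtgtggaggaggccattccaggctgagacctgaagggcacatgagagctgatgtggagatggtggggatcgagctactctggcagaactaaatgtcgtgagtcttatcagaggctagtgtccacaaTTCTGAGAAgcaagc
Cxcl12, chr6:117168285-117168534, plus strand: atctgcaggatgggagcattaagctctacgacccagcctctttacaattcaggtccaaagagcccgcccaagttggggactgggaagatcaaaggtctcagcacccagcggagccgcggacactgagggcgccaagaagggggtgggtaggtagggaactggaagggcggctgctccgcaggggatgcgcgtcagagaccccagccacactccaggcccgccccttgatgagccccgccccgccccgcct

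The Cxcl1 window held the NF-κB letters from 70 to 62 bases before the start, a match found in 1.07% of 32851 promoter windows of this length (0.356% for the form with 1 more G). The Csf2rb2 window held the STAT letters from 15 to 7 bases before the start, found in 7.02% of windows. Il33 held TATAAA from 203 to 198 bases before the start (12.4% of windows), and in the Cxcl12 window none of the 4 motifs was found. The AP-1 letters, found in 6.75% of windows, were in none of these 4. Il33 had a further promoter entry, not shown, with a start 20677 bases downstream of the counted one. It held TATAAA from 29 to 24 bases before that start. These matches are a description of letters. Promoter entries were matched for 7 of the 10 members.

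Of the 10 members, 9 had enough counts to be tested and Ccl12 had not. Among the 6 tested members that were not chosen by value, 0 passed an adjusted p of 0.05 in edgeR's quasi-likelihood test, against 1.82% of all 14685 genes tested, and Cxcl16 and Csf2rb were at an unadjusted p under 0.05, against 25.9% of all genes. DESeq2 called 1 of the 6, Cxcl16 (11.9% of all genes), and limma-voom 0 (1.63%). Of the 7 members chosen by name, the groups did not overlap in 1, Cxcl16, which was lower in C234W (29.1% of all tested genes had separate groups). Csf2rb2 and Cxcl12, chosen by value, were higher in every C234W library than in any WT library, and 12.6% of all tested genes were. The members fell into separate patterns over libraries. Cxcl1, Ccl2, Il33 and Csf2rb were highest in FS3A and FS3B, with WT1A the highest of the remaining libraries and FS5A within or near the WT range, whereas Csf2rb2 and Cxcl12 were high in all 3 C234W libraries.

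**Figure D1:**
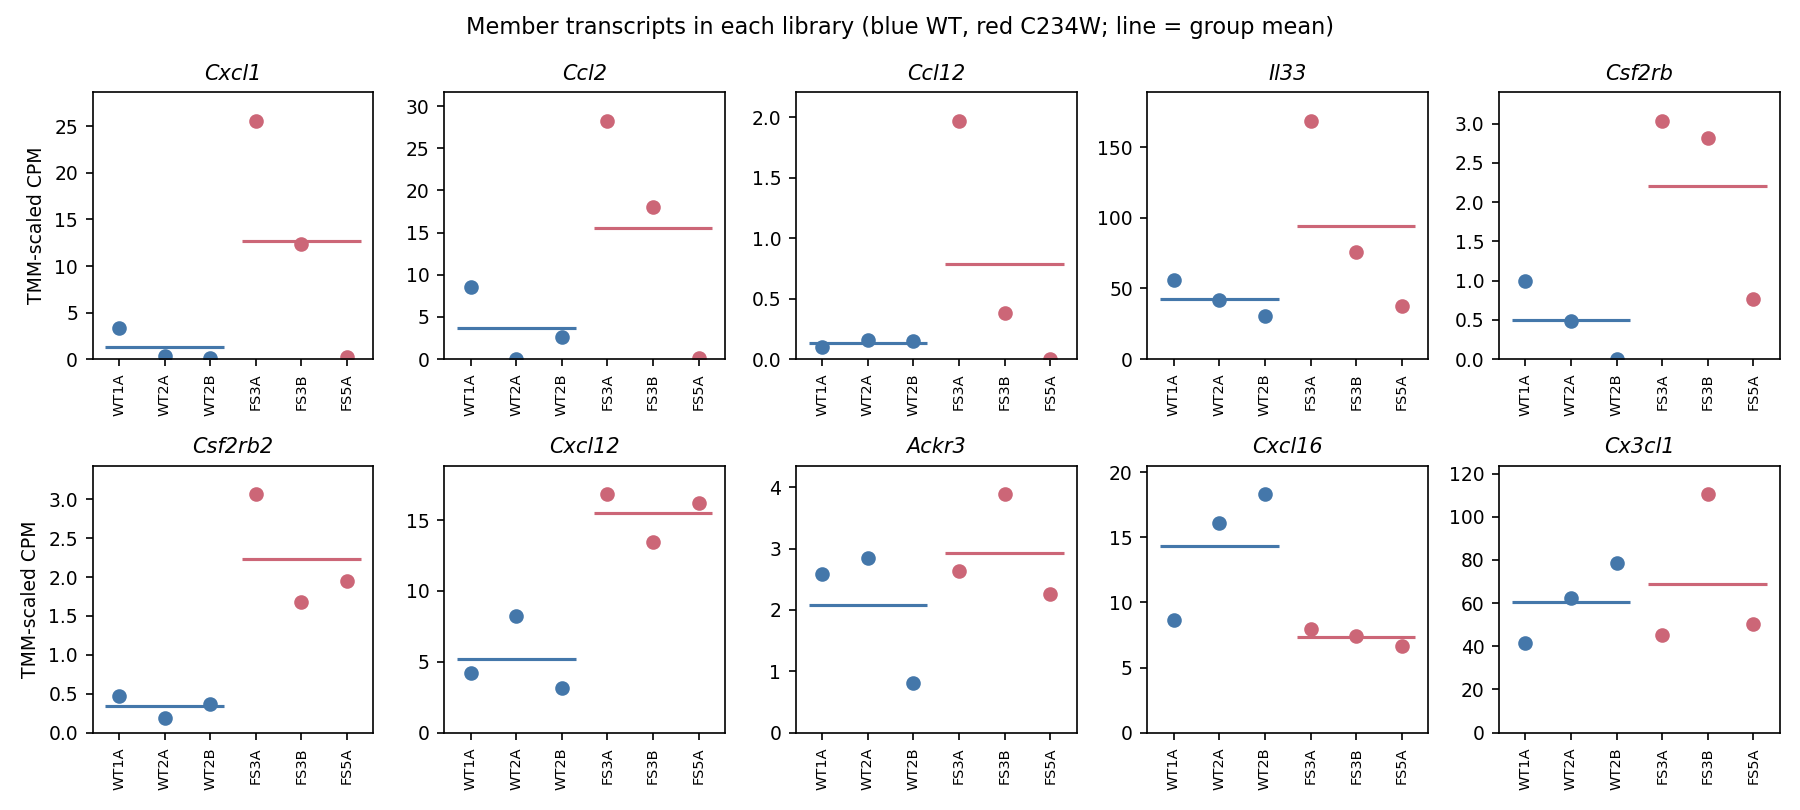
TMM-scaled CPM of each of the 10 members (vertical axes, each from 0) in the 3 WT libraries (blue) and the 3 C234W libraries (red), with a line at each group mean. Cxcl1 stands at 25.62 and 12.36 CPM in FS3A and FS3B and at 0.2439 CPM in FS5A, while Cxcl12 lies between 13.42 and 16.83 CPM in all 3 C234W libraries.

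Cxcl1, a ligand that draws neutrophils through Cxcr2, lies on chromosome 5 (90891245 to 90893115, mm10, plus strand; 943 bases counted). Its deposited counts were 50, 6 and 1.5 in the WT libraries (WT1A, WT2A, WT2B) and 468, 260.5 and 4 in the C234W libraries (FS3A, FS3B, FS5A). In TMM CPM these were 3.32, 0.323 and 0.11 in WT and 25.6, 12.4 and 0.244 in C234W. FS3A and FS3B were above every WT library, but FS5A was below WT1A and WT2A, so the groups overlapped. The means were 1.25 ± 1.79 in WT and 12.7 ± 12.7 in C234W (SD, n = 3), a log2 difference of 3.36 (SE 1.31), which went to 5.66 without WT1A and to 2.37 without FS3A. Cxcr2, its receptor, had 3, 0 and 0 counts in WT and 9, 4 and 2 in C234W, too few to test.

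Ccl2, which attracts monocytes through Ccr2, and its paralog Ccl12 lie on chromosome 11 with 64393 bases between them (82035577 to 82037452 and 82101845 to 82103399, both on the plus strand). Their transcripts share 0 windows of 25 bases. Ccl2 was measured at 8.57, 0.0269 and 2.65 CPM in WT1A, WT2A and WT2B, from 129, 0.5 and 36 counts. In FS3A, FS3B and FS5A it was at 28.3, 18.1 and 0.122 CPM, from 516.5, 381 and 2 counts. FS3A and FS3B were again the highest libraries and WT1A the next, while FS5A was among the lowest. The fold change, 2.09 on the log2 scale (SE 1.33), was not past the threshold (edgeR, adjusted p = 0.351; 0.129 to 0.81 over 25 alternatives). Ccl12 had 1.5, 3 and 2 counts in WT and 36, 8 and 0 in C234W. FS3A and FS3B, at 1.97 and 0.379 CPM, lay above the WT range of 0.0996 to 0.162 CPM, and a count of 0 in FS5A allows up to 0.183 CPM (3 counts, for counting error only). Ccr2, the receptor of both ligands, had levels of 0 to 0.294 CPM in WT and 0 to 0.569 CPM in C234W.

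Il33 lies on chromosome 19 (29925113 to 29960717, plus strand, 2646 bases) and was, per base of transcript, among the most abundant members. It was measured at 56.2, 41.6 and 30.6 CPM in the WT libraries (WT1A, WT2A, WT2B) and at 168.7, 75.7 and 37.4 CPM in the C234W libraries (FS3A, FS3B, FS5A). FS3A and FS3B exceeded every WT library and FS5A lay inside the WT range. The means were 42.8 ± 12.9 and 94 ± 67.5 CPM (SD, n = 3). The log2 fold change of 1.13 (SE 0.501) did not pass the test (edgeR, adjusted p = 0.2; 0.0608 to 0.593 over 25 alternatives), and was 0.40 without FS3A. Of its receptor chains, Il1rl1, which encodes ST2, had 0, 2 and 1 counts in WT and 5, 4 and 0 in C234W. Il1rap, the accessory chain shared with the IL-1 receptor, was at 4.48, 4.76 and 5 CPM in WT and 7.66, 7.68 and 13.2 CPM in C234W. It was higher without overlap, as were 12.6% of all tested genes. The log2 fold change of Il1rap was 1.00 (SE 0.288, edgeR adjusted p = 0.0842, and 0.0195 to 0.368 over alternatives, passing in DESeq2).

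Reactive glia markers moved with these members. All 13 genes of the list (Gfap, Lcn2, Serpina3n, Edn2, Fgf2, Stat3, Socs3, C4b, Bcl3, Lif, Cp, Timp1 and Osmr) were detected, 13 of 13 had a positive log2 fold change and 0 passed in edgeR, with 8 under 0.05 before adjustment, and DESeq2 called 3. Of all tested genes, 25.9% were under 0.05 before adjustment and DESeq2 called 11.9%, and the median log2 fold change was 0.02. The summed level of the 13 markers was 641.1, 309.5 and 343 CPM in the WT libraries (WT1A, WT2A, WT2B) and 1663, 1059 and 390.4 CPM in the C234W libraries (FS3A, FS3B, FS5A). FS3A, FS3B and WT1A were thus the 3 highest libraries for the marker sum as well as for Cxcl1, Ccl2 and Il33. Gfap, the intermediate filament of astrocytes and stressed Müller glia, was at 248.4 and 99.4 CPM in FS3A and FS3B and at 20.4 to 46.7 CPM in the other 4 libraries. Of 4 astrocyte markers, Gfap among them, 2 were positive and 2 negative (median -0.05), with S100b lower without overlap. Of 8 Müller glia markers, 4 were positive and 4 negative (median -0.03), with 3 lower without overlap. Groups were separate in 29.1% of all tested genes. The part of the reactive glia markers in the levels of the members was not tested. Microglia markers did not follow the order of the reactive glia markers: their sum was 97.2 to 156.6 CPM in WT and 80.7 to 133.2 CPM in C234W, with 14 of 14 detected and 5 of 14 positive. Macrophage and monocyte markers summed to 5.85 to 7.88 CPM in WT and 6.46 to 11.5 CPM in C234W. Granulocyte and mast cell markers summed to 2.35 to 2.82 CPM in WT and 5.18 to 9.58 CPM in C234W, without overlap, with Ly6g and Cpa3 at 0 counts in the 6 libraries. In FS3B and FS5A most of this sum was Kit, at 6.31 and 3.72 CPM (2.46 CPM in FS3A, 2.06, 1.45 and 0.956 CPM in WT), and in FS3A it was S100a8 and S100a9, at 2.03 and 3.61 CPM. Of the 7 granulocyte and mast cell markers, 2 were tested, Csf3r and Kit, and 0 passed in edgeR, while DESeq2 called 1. Kit was higher without overlap, as were 12.6% of all tested genes. The part of these markers was not tested.

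**Figure D2:**
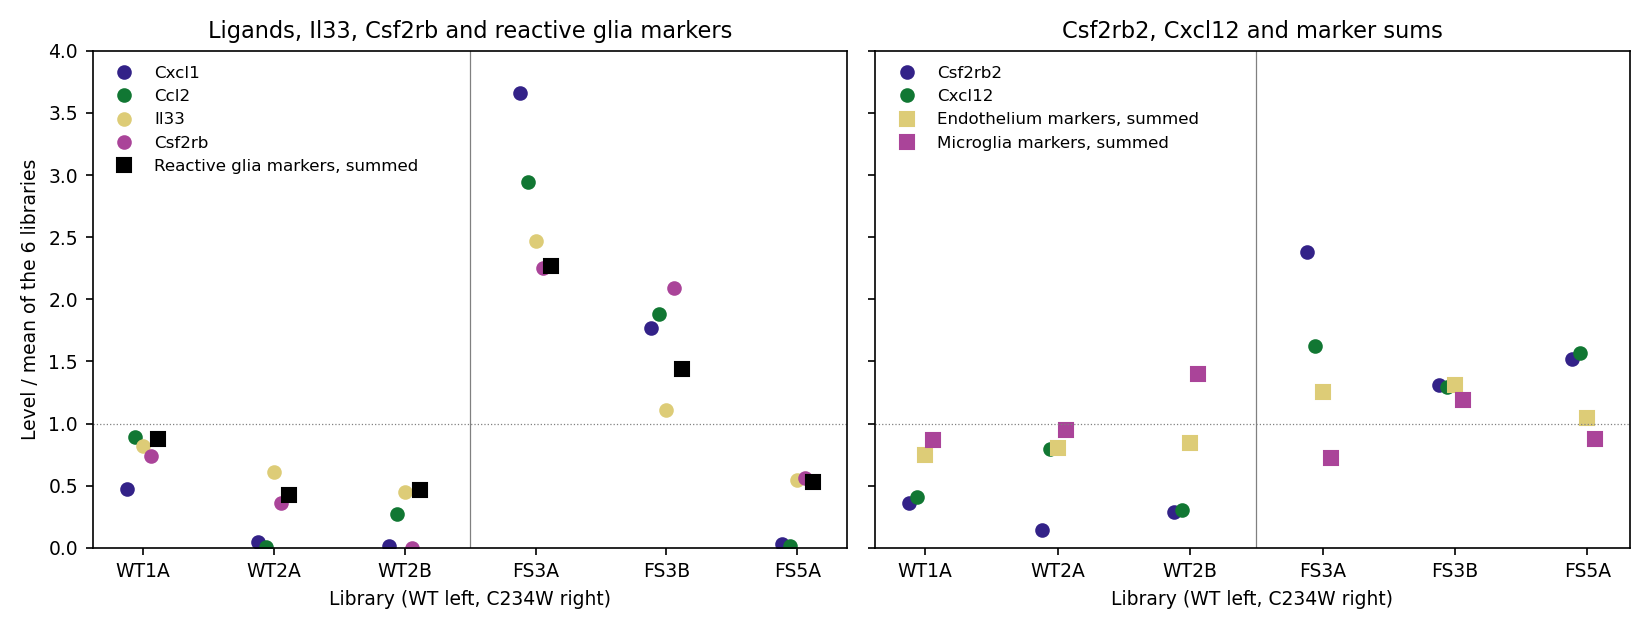
Levels in each library divided by the mean of the 6 libraries (vertical axis), for members (circles) and for summed cell type markers (squares), with WT libraries left of the grey line and C234W libraries right of it. In the left panel FS3A and FS3B lie above 1 and FS5A below it for Cxcl1, Ccl2, Il33, Csf2rb and the reactive glia markers; in the right panel Csf2rb2 and Cxcl12 lie above 1 in all 3 C234W libraries.

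Csf2rb2 and Csf2rb lie head to head on chromosome 15, at 78282508 to 78305721 on the minus strand and 78325800 to 78351001 on the plus strand, with 20079 bases between them. The genes are near copies: 33.9% of the 25-base windows and 19% of the 50-base windows of the Csf2rb2 transcript occur in Csf2rb transcripts, and tags confined to such stretches are lost where uniquely mapped tags are counted, so both absolute levels are uncertain. Csf2rb2, the IL-3-restricted β chain, had 7, 3.5 and 5 counts in the WT libraries (WT1A, WT2A, WT2B) and 56, 35.5 and 32 in the C234W libraries (FS3A, FS3B, FS5A). These are 0.465, 0.188 and 0.368 CPM against 3.07, 1.68 and 1.95 CPM. Every C234W library exceeded every WT library, and the lowest C234W level was 3.62 times the highest WT level. The means were 0.34 ± 0.14 and 2.23 ± 0.733 CPM (SD, n = 3). On the log2 scale the difference was 2.69 (SE 0.486), and it lay between 2.40 and 2.97 over the alternatives. Its level in C234W was nevertheless low, at 0.473 CPM per kilobase.

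Csf2rb, the common β chain, had 15, 9 and 0 counts in WT and 55.5, 59.5 and 12.5 in C234W. In CPM it was at 0.996, 0.484 and 0 in the WT libraries (WT1A, WT2A, WT2B) and at 3.04, 2.82 and 0.762 in the C234W libraries (FS3A, FS3B, FS5A). The 0 in WT2B allows up to 0.221 CPM. FS3A and FS3B were above every WT library and FS5A was below WT1A, unlike Csf2rb2, which was as high in FS5A as in FS3B. The log2 fold change was 2.14 (SE 0.745, edgeR adjusted p = 0.125; 0.0625 to 0.399 over 24 alternatives). Whether the fold changes of the β chains differ was not tested. Summed, both chains were at 1.46, 0.673 and 0.368 CPM in WT and 6.1, 4.51 and 2.71 CPM in C234W, without overlap. Csf2rb2, chosen by value, is part of this sum and had separate groups on its own, whereas those of Csf2rb overlapped. The sum is therefore a description.

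Of the partners of the β chains, 2 α chains had enough counts to be tested and neither passed in edgeR. Csf2ra, the α chain for GM-CSF, was at 19.1, 22.4 and 18.2 CPM in WT and 22.3, 13.4 and 19.4 CPM in C234W, with overlap. Its log2 fold change of -0.12 (SE 0.226, edgeR adjusted p = 0.772) turned positive with total-count scaling (0.05) and without FS3B (0.07). Il3ra, the α chain for IL-3, was at 2.96, 2.56 and 2.87 CPM in WT and 2.57, 1.28 and 0.854 CPM in C234W (log2 fold change -0.82, SE 0.407, edgeR adjusted p = 0.235). Il5ra had 0 counts in each WT library and 2, 1 and 1 in C234W. Of the ligands, Csf2, which encodes GM-CSF, had 0 counts in WT and 26, 3 and 0 in the C234W libraries (FS3A, FS3B, FS5A), Il3 had 0, 1 and 0 in WT and 0 in C234W, and Il5 had 1, 2 and 0 in WT and 0, 4 and 0 in C234W.

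Cxcl12, which acts on Cxcr4 and Ackr3 and guides vascular and neuronal cells as well as leukocytes, lies on chromosome 6 (117168535 to 117181368, plus strand, 5664 bases). It was at 4.22, 8.24 and 3.16 CPM in the WT libraries (WT1A, WT2A, WT2B) and at 16.8, 13.4 and 16.2 CPM in the C234W libraries (FS3A, FS3B, FS5A). The groups did not overlap, and the lowest C234W library was 1.63 times the highest WT library. The means were 5.21 ± 2.68 and 15.5 ± 1.82 CPM (SD, n = 3). On the log2 scale the difference was 1.54 (SE 0.332), and it lay between 1.30 and 2.06 over the alternatives. Ackr3, which binds and internalizes Cxcl12, lies on chromosome 1 (90203980 to 90215722, plus strand) and was at 2.59, 2.85 and 0.809 CPM in WT and 2.63, 3.89 and 2.26 CPM in C234W. These ranges overlapped, and the log2 fold change of 0.47 (SE 0.437) did not pass the test (edgeR, adjusted p = 0.528; 0.354 to 0.911 over alternatives). Cxcr4 had 2 to 11 counts per library in all 6 and was not tested.

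The summed levels of endothelium and of bipolar cell markers were higher in the libraries where Cxcl12 and Csf2rb2 were high. This was not particular to them. Lymphocyte markers (0.598 to 0.773 CPM in WT, 0.849 to 1.28 CPM in C234W) and granulocyte and mast cell markers also summed higher without overlap. So did the lists of chemokine receptors and of IL-33 and IL-1 family genes described below. The rod marker sum was lower without overlap. Of all tested genes, 25.9% were under 0.05 before adjustment and DESeq2 called 11.9%, and the median log2 fold change was 0.02. All 10 endothelium markers were detected, 10 of 10 had a positive log2 fold change with a median of 0.62, and 0 passed in edgeR, with 4 under 0.05 before adjustment, and DESeq2 called 4. They summed to 194.7, 209.5 and 221.8 CPM in the WT libraries (WT1A, WT2A, WT2B) and 328.8, 342.1 and 274.1 CPM in the C234W libraries (FS3A, FS3B, FS5A), without overlap. Pericyte and smooth muscle markers summed to 48.5 to 113.4 CPM in WT and 100.3 to 131.9 CPM in C234W and overlapped. All 6 bipolar cell markers were detected and 6 of 6 had a positive log2 fold change with a median of 0.52, while 0 passed in edgeR, 3 were at an unadjusted p under 0.05 and DESeq2 called 3. They summed to 875.3, 711.9 and 687.5 CPM in WT and 1020.1, 1067.9 and 1060.5 CPM in C234W, without overlap. The part of these markers in the levels of Cxcl12 and Csf2rb2 was not tested.

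Cxcl16 and Cx3cl1 are the membrane-tethered members, which sheddases release as soluble chemokines. Cxcl16, the ligand of Cxcr6, lies on chromosome 11 (70454389 to 70459984, minus strand); the counted model is a non-coding isoform of 1686 bases, and Zmynd15 overlaps it on the other strand. It was the member that was lower in C234W: 8.67, 16.1 and 18.3 CPM in WT1A, WT2A and WT2B against 7.96, 7.42 and 6.68 CPM in the C234W libraries (FS3A, FS3B, FS5A). The groups did not overlap, though WT1A lay close to the C234W libraries. The log2 fold change was -0.96 (SE 0.292, edgeR adjusted p = 0.0929). Over 25 alternatives the adjusted p ran from 0.0135 to 0.41, and it passed in DESeq2 (0.0266) and without WT1A (edgeR, 0.0135). Without WT1A, 2771 genes passed in edgeR, against 267 with all libraries. Cxcr6 had 0 counts in the 6 libraries.

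Cx3cl1, which neurons present to microglia, lies on chromosome 8 (94772180 to 94782426, plus strand). It was at 41.5, 62.1 and 78.5 CPM in WT and 45.1, 110.5 and 50.4 CPM in C234W, with FS3B the highest library and the others intermixed. The log2 fold change was 0.18 (SE 0.355, edgeR adjusted p = 0.782) and changed sign without WT1A (-0.02) or without FS3B (-0.34). Its microglial receptor Cx3cr1 was at 1.39, 0.7 and 1.62 CPM in WT and 0.602, 1.23 and 2.19 CPM in C234W (log2 fold change 0.14, SE 0.53, edgeR adjusted p = 0.897), a direction that flipped without WT2A, without FS5A and with the transcript length trend removed. The sheddases were higher in each C234W library than in any WT library, as were 12.6% of all tested genes. For Adam10 the gap was small, with 43.87 CPM in FS5A and 43.37 CPM in WT1A. Adam10 was at 43.4, 30.6 and 28.4 CPM in WT and 45.2, 52.5 and 43.9 CPM in C234W, a log2 fold change of 0.47 (SE 0.197, edgeR adjusted p = 0.176). Adam17 was at 16.4, 11.9 and 8.42 CPM in WT and 20.1, 17.8 and 23.6 CPM in C234W, a log2 fold change of 0.74 (SE 0.26, edgeR adjusted p = 0.128). Neither passed with all libraries, and both passed without WT1A (edgeR adjusted p = 0.0269 and 0.0274, and up to 0.585 and 0.438 over alternatives). Without WT1A, 2771 genes passed in edgeR, against 267 with all libraries.

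Per kilobase of counted transcript, the WT order of levels was Cx3cl1 (19.3 CPM per kilobase), Il33 (16.2), Cxcl16 (8.52), Ccl2 (4.68), Cxcl1 (1.33), Cxcl12 (0.919), Ackr3 (0.901), Ccl12 (0.256), Csf2rb (0.102) and Csf2rb2 (0.0721). Neighbours in this order overlapped over the 3 WT libraries except Il33 above Cxcl16 and Ackr3 above Ccl12. In C234W the order was Il33 (35.5 CPM per kilobase), Cx3cl1 (21.9), Ccl2 (19.3), Cxcl1 (13.5), Cxcl16 (4.36), Cxcl12 (2.74), Ccl12 (1.48), Ackr3 (1.26), Csf2rb2 (0.473) and Csf2rb (0.457). There Cxcl16 stood above Cxcl12, and Ackr3 above Csf2rb2, without overlap, and the other neighbours overlapped.

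Leaving out single libraries changed the count of members whose groups did not overlap. Without FS5A, 7 members were higher and 1 lower without overlap, when 40.1% of all tested genes had separate groups: Cxcl1, Ccl2, Ccl12, Il33 and Csf2rb joined Cxcl12, Csf2rb2 and Cxcl16. Without WT1A, 3 were higher and 1 lower, when 53.3% of all tested genes had separate groups. Without each of the other 4 libraries, 2 were higher and 1 lower, as with all 6, when 34.6% (WT2A), 33.1% (WT2B), 34.2% (FS3A) and 43.5% (FS3B) of all tested genes had separate groups. Csf2rb2, Cxcl1 and Cxcl12 are among these members, so the counts are a description. Ccl12, counted without FS5A, was not tested, whereas the shares cover only tested genes, in either direction.

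**Figure D3:**
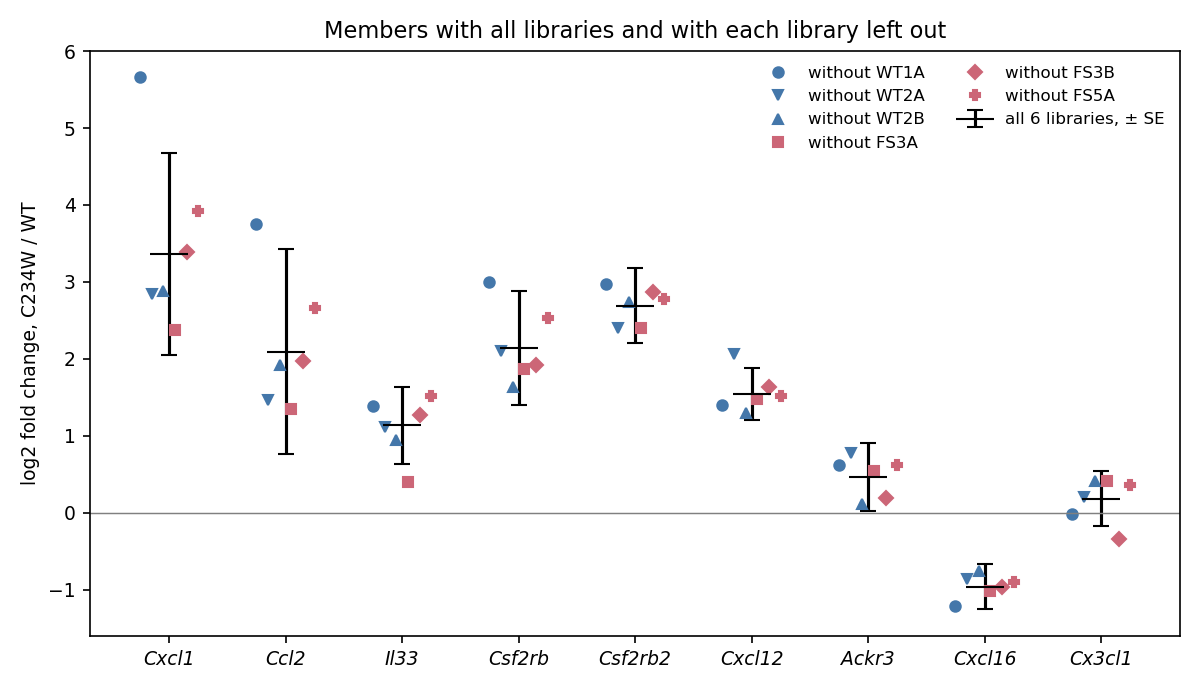
Log2 fold change of C234W over WT for the 9 tested members (vertical axis) with all 6 libraries (black bar, ± SE) and with each library left out (blue symbols for WT, red for C234W). Cxcl1 spans 2.37 to 5.66 and Ccl2 1.35 to 3.75, Csf2rb2 stays between 2.40 and 2.97, and Cx3cl1 lies on both sides of 0.

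The 7 lists of related chemokine and cytokine genes were measured, and 0 of their genes passed in edgeR. The median log2 fold change over all tested genes was 0.02. For comparison with the counts of each list, 25.9% of all tested genes were at an unadjusted p under 0.05. Of all tested genes, edgeR called 1.82% and DESeq2 11.9%. Without WT1A, 2771 genes passed in edgeR, against 267 with all libraries. Of 30 other chemokine ligands, 9 had 0 counts throughout and 11 were tested, with 6 positive, a median of 0.08, 1 with an unadjusted p under 0.05 and DESeq2 calling 1. This was Ccl28, a mucosal chemokine, at 1.33, 0.538 and 1.25 CPM in WT and 4.87, 4.32 and 2.5 CPM in C234W, a log2 fold change of 1.95 (SE 0.431, edgeR adjusted p = 0.0545; 0.00282 to 0.368 over alternatives, passing in DESeq2, without WT1A and with no filter on low counts). Of 22 other chemokine receptors, 6 had 0 counts throughout and 3 were tested, with 1 with an unadjusted p under 0.05 and DESeq2 calling 0. That gene was Ackr1, the Duffy antigen receptor, which binds many inflammatory chemokines without signalling, at 38.8, 46.7 and 40.8 CPM in WT and 51.3, 58.2 and 53.2 CPM in C234W (log2 fold change 0.36, SE 0.152, edgeR adjusted p = 0.175).

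Of 16 genes of common β chain signalling, 12 were tested, with 6 positive and 6 negative, a median of 0.03, 1 higher and 2 lower with an unadjusted p under 0.05 and DESeq2 calling 0. The smallest p was that of Stat5b, a transcription factor activated by these receptors, at 35.2, 20.3 and 27.1 CPM in WT and 41.4, 50.9 and 35.3 CPM in C234W (log2 fold change 0.63, SE 0.233, edgeR adjusted p = 0.139; 0.035 without WT1A and up to 0.499). Of 15 IL-33 and IL-1 family genes, 7 were tested, all with a positive log2 fold change and a median of 0.79, with 2 with an unadjusted p under 0.05 and DESeq2 calling 2. The smallest p was that of Il1r1, the signalling IL-1 receptor, at 9.23, 5.46 and 4.45 CPM in WT and 23.4, 17.7 and 8.87 CPM in C234W, a log2 fold change of 1.39 (SE 0.392, edgeR adjusted p = 0.0796; 0.00766 to 0.404 over alternatives, passing in DESeq2 and without WT1A).

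Of 33 other cytokines and receptors, 30 were tested, with 26 positive, a median of 0.47, 4 with an unadjusted p under 0.05 and DESeq2 calling 1. Il6st, the gp130 chain shared by receptors of IL-6 and LIF, had the smallest p, at 81.5, 64 and 75 CPM in WT and 162.2, 120 and 79.2 CPM in C234W (log2 fold change 0.71, SE 0.246, edgeR adjusted p = 0.123). All 18 NF-κB and STAT3 genes were tested, with 15 positive, a median of 0.50, 5 with an unadjusted p under 0.05 and DESeq2 calling 3. Nfkb1, which encodes the p50 subunit precursor, had the smallest p, at 18.3, 11.4 and 8.46 CPM in WT and 37.4, 20.6 and 23.2 CPM in C234W (log2 fold change 1.09, SE 0.325, edgeR adjusted p = 0.0895; 0.0151 to 0.377 over alternatives, passing in DESeq2 and without WT1A). All 5 sheddase and scavenging genes were positive, with a median of 0.47, 3 with an unadjusted p under 0.05 and DESeq2 calling 0. Dpp4, a peptidase that cleaves Cxcl12, had the smallest p, at 1.06, 0.942 and 1.14 CPM in WT and 1.89, 2.7 and 1.98 CPM in C234W (log2 fold change 1.04, SE 0.349, edgeR adjusted p = 0.116). The lists hold 5 genes that are also reactive glia markers (Stat3, Socs3, Bcl3, Lif and Osmr), so they are not separate from that list. Limma-voom called 0 genes in each of the 7.

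**Figure D4:**
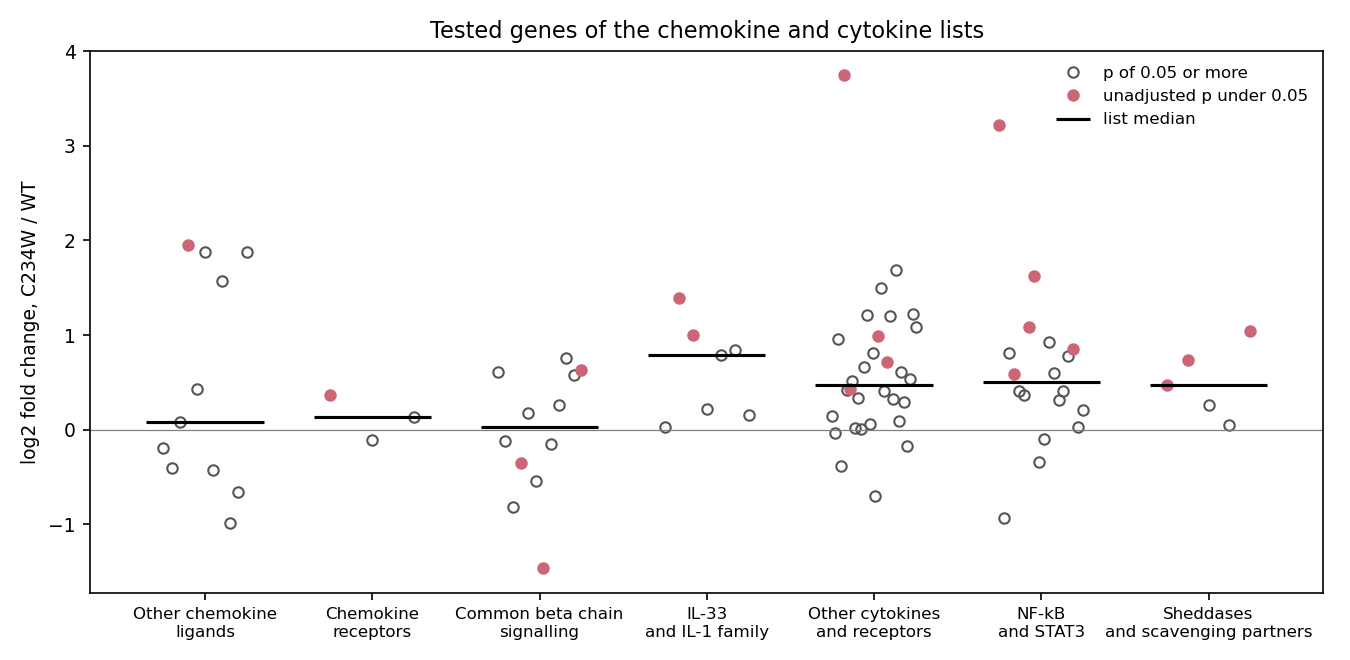
Log2 fold change of C234W over WT (vertical axis) for each tested gene of the 7 lists, filled where the unadjusted p was under 0.05 in edgeR, with a line at each list median. The medians run from 0.03 for common β chain signalling to 0.79 for the IL-33 and IL-1 family, and none of the genes shown passed the adjusted threshold in edgeR.

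Among 13286 tested genes with a mean of at least 1 CPM, those whose levels over the 6 libraries were most like each chosen member were ranked by Pearson's r on log2(CPM + 1), as a description. For Csf2rb2 they were Aldh1l2, a mitochondrial folate enzyme (r = 0.997), Dnmt3b, a DNA methyltransferase (0.995), and the septin Sept11 (0.993). Dnmt3b was at 1.59, 1.24 and 1.77 CPM in WT and 5.69, 3.77 and 3.87 CPM in C234W. For Cxcl1 they were Nr1h4, the bile acid receptor (r = 0.999), the peptidase gene Nln (0.996) and Tmub1 (0.994); Nr1h4 was at 2.99, 1.51 and 1.43 CPM in WT and 6.57, 5.19 and 1.52 CPM in C234W. For Cxcl12 they were the matrix protein gene Tinagl1 (r = 0.997), the glucose-6-phosphate transporter Slc37a4 (0.992) and the diacylglycerol kinase Dgkh (0.99), the last at 29.5, 41.9 and 30 CPM in WT and 61.3, 53.1 and 57.3 CPM in C234W. The 6 points of each r share their libraries, depths and group differences.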

How the data were processed

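Poly-adenylated RNA of whole retina was sequenced in 3 WT and 3 C234W libraries. Values in the deposited table are unnormalized estimated counts in steps of 0.5. STAR 2.7.8a is named in the submitters' processing notes. HOMER counted exon tags of mm10 genes with its strand setting at minus and kept a single isoform per gene, per the file headers. Genes on both genomic strands had counts. Counts were rounded for the count tests, and 0 sample columns were left out.

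The filterByExpr function of edgeR 4.0.16 (R 4.3.3) kept 14685 of 25124 genes. Libraries were scaled by TMM and compared by the quasi-likelihood test in its newer form with robust dispersion and no covariate, Benjamini-Hochberg adjusted over all tested genes. Each SE is the absolute log2 fold change divided by the square root of that test's F statistic. For members chosen by value, the SE therefore gives no separate support. DESeq2 (1.42.0), limma-voom (3.58.1), other scalings and filters, non-robust dispersion, unrounded counts, removal of a loess trend on transcript length (span 0.3), summed libraries with a shared name number, and leaving out each library were alternatives. The first fit used the older quasi-likelihood estimate, the package default, and called 215 genes. The newer estimate, which calls 267, was taken as main after these counts and those of 7 further settings had been seen, because it gives the count of an earlier analysis of these data. Neither form calls a tested member chosen by name. Scripts were tested on simulated counts. The smallest chi-square between 2 libraries was 9.97 per degree of freedom (WT2A and WT2B), so none was treated as a duplicate. The other pairs ran from 30.57 (FS3A and FS5A) to 111.6 (WT1A and FS3B), with FS3A and FS3B at 47.65.

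The members and lists were chosen with earlier results of these data known. The text names the members and their receptors and partners, in each list the gene with the smallest p where none passed, and the 3 genes most like each member chosen by value; exceptions are stated. Gene models were compared with GENCODE M21 on the same assembly.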

Additional observations from a re-analysis of the deposited data

How the results depend on the processing

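The 267 genes past the threshold in edgeR became 1 with total-count scaling (which moved the median log2 change over genes from 0.02 to 0.21), 1 with the length trend removed, 0 with libraries of a shared number summed and 1754 in DESeq2. They ran from 0 to 2771 with 1 library left out (2771 without WT1A, 0 without WT2A, WT2B or FS3A, 1 without FS3B, 7 without FS5A). The 4 settings with 0 had, at an unadjusted p under 0.05, 1847 (summed), 2384, 2224 and 2456 genes. The other planned settings gave 200 to 350. Settings tried after seeing the data, while the form of the test was being chosen, gave 215 with the older estimate, 225 with it and non-robust dispersion, 166 and 168 with it and TMM before the filter (library sizes recomputed or kept), 216 with it and counts ending in 0.5 rounded up, 213 and 212 with both changes (library sizes recomputed or kept), and 267 with the newer estimate and no dispersion trend. Under the alternatives run, 8 of the 9 tested members kept their direction. Cx3cl1 reversed without WT1A (-0.02) and without FS3B (-0.34, the lowest value with 1 library left out; the highest was 0.4108). Cx3cr1 reversed with the length trend removed (-0.0095), without WT2A (-0.18) and without FS5A (-0.36; highest 0.4817). Csf2ra reversed with total-count scaling (0.05253) and without FS3B (0.06877; lowest -0.2823). The cause was not tested. Csf2rb was left out by the filter of 1 CPM in 3 libraries. Removing the length trend lowered the log2 fold changes of Il6st (5433 bases, 0.71 to 0.48) and Stat5b (4898 bases, 0.63 to 0.41). It raised those of Ackr1 (1154 bases, 0.36 to 0.62) and Ccl2 (801 bases, 2.09 to 2.40). The medians of the lists were not computed without this trend. No paired analysis was possible because the table's columns carry no replicate number of the labels. Members at a few counts per library, such as Ccl12 and the β chains, are limited by depth.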

Other observations

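Some genes outside the members and the rule for named genes, chosen after their values were seen, also had their highest levels in FS3A, FS3B and WT1A. Csf3, which encodes the granulocyte growth factor G-CSF, had 13, 3 and 7 counts in the WT libraries (WT1A, WT2A, WT2B) and 250, 129.5 and 0 in the C234W libraries (FS3A, FS3B, FS5A). Ccl7, a monocyte chemokine whose gene neighbours Ccl2, had 34.5, 0 and 4 counts in WT and 110, 61.5 and 0 in C234W. Cxcl2, like Cxcl1 a Cxcr2 ligand, was at 2.42, 0.377 and 0 CPM in WT and 8.24, 1.75 and 0.122 CPM in C234W. Cxcl10, an interferon-induced ligand, was at 3.69, 0.458 and 1.43 CPM in WT and 5.15, 10.7 and 0.122 CPM in C234W. In each of these 4 the values in FS3A, FS3B and WT1A were above those of WT2A, WT2B and FS5A. None passed in edgeR (adjusted p = 0.137 for Csf3, 0.371 for Ccl7, 0.372 for Cxcl2 and 0.371 for Cxcl10).

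Ccr1, a receptor for inflammatory CC chemokines, had 0 counts in each WT library and 26, 17 and 3 in the C234W libraries (FS3A, FS3B, FS5A). Cxcl5, a further Cxcr2 ligand, was at 0.0664, 0.0538 and 0 CPM in WT and 0.821, 0.759 and 0.122 CPM in C234W. Neither had enough counts to be tested, and both were chosen after their values were seen.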
